A study of Mus musculus with 8 samples.

Results

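The replication-dependent histone genes encode the linker histone H1 and the core histones H2A, H2B, H3 and H4 that package newly copied DNA. They were taken as the protein-coding genes whose GENCODE M21 symbol begins with Hist1h, Hist2h, Hist3h or Hist4h, which gave 67 of the 55450 genes in the count table. The set holds 6 H1, 18 H2A, 18 H2B, 12 H3 and 13 H4 genes. Another 3 rows with such symbols are annotated as pseudogenes and were not members.

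These genes are transcribed mainly while a cell copies its DNA, and their short, intronless messages end in a conserved hairpin, the stem-loop, in place of a poly(A) tail. The stem-loop is bound by the stem-loop-binding protein Slbp and guides 3′ cleavage, with the U7 small nuclear ribonucleoprotein binding just downstream. When DNA synthesis ends, uridines are added to the message and it is degraded from both ends. Because the messages carry no poly(A) tail, libraries made from poly(A) RNA miss most of them, while total RNA libraries hold them.

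RNA came from the mouse macrophage-like line RAW264.7 and was sequenced in total, after removal of ribosomal RNA. One derivative of the line carried an shRNA that silences no gene (shNS, the control), and the other an shRNA to Dis3l2 (shDis3l2), an exoribonuclease that removes uridine-tailed RNAs. From each derivative 3 libraries were made after 4 days in doxycycline (1 µg/mL), the drug that switches on such shRNAs, and 1 library without the drug, at 75 to 85% confluence. The labels state neither how many clones each line comes from nor that the replicates were separate cultures, so p-values measure the spread between these libraries, which may be technical. Dis3l2 itself was at 33.0, 28.7 and 22.0 CPM (counts per 1000000 counts of the library, scaled by the TMM method) in shNS replicates 1, 2 and 3 with doxycycline and at 12.0, 13.5 and 14.9 CPM in the shDis3l2 replicates, a log2 fold change of -1.05 with a standard error (SE) of 0.19 and an adjusted p of 0.0216 by edgeR's quasi-likelihood test. That adjusted p was 0.0814, 0.112 and 0.0777 when shDis3l2 replicate 1, 2 or 3 was left out, so the call was lost there. In the untreated libraries Dis3l2 stood at 29.7 CPM (shNS) and 28.6 CPM (shDis3l2), so those libraries compare the lines at like Dis3l2 levels. The libraries held 30341837 to 45557820 counts. All 10 macrophage markers examined were detected and tested, with Mpeg1 and Adgre1 passing as lower in shDis3l2 with doxycycline (Mpeg1 not when a shDis3l2 replicate was left out, Adgre1 not when replicate 1 or 3 of shNS was, nor replicate 1 or 2 of shDis3l2), and 4 of 6 fibroblast, 5 of 5 epithelial and 3 of 6 lymphocyte markers were at 0 in every library.

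The genes lie in 4 places on GRCm38. The Hist1 cluster spans chr13:21715763-23934851 and holds 54 of the 67 genes in 2 blocks, one of 23 genes at chr13:21715763-22043676 and one of 31 genes at chr13:23531050-23934851. All 6 H1 genes are in Hist1. The Hist2 cluster holds 10 genes within chr3:96219865-96270132, the Hist3 cluster 2 genes within chr11:58948920-58956830, and Hist4h4 stands alone at chr6:136801553-136804415. Many of the genes are arranged head to head. Among genes with at least 50 counts over the 8 libraries, 12 neighbouring pairs on opposite strands had under 1000 bases between their starts. Of these pairs 11 joined an H2A with an H2B gene, and the median gap was 258.5 bases. Hist1h2ba and Hist1h2aa also lie head to head but fell below that count.

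A complete stem-loop was present in the transcripts of 44 of the 67 genes. The search asked for a 16-base sequence with stems of 6 bases that pair fully and a loop of 4 bases (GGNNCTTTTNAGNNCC, on the transcript strand). The stem-loop was found in 44 of the 56 genes whose model includes untranslated sequence, or 78.6%, and in 0 of the 11 genes whose model is limited to coding sequence, where it could not be seen. Among the other 21884 protein-coding genes it was found in 5, or 0.0228%: Nova2, Syncrip, Trim17, H2bfm and H2afx. Of these, Trim17 starts at the same base and on the same strand as Hist3h2a and shares sequence with it. The variants are shown because they divide the family by protein type: of the 11 H4 genes with a stem-loop, 9 carry the stem GGCCCT and 2 the stem GGTCCT, while all 33 others carry the stem GGCTCT. Each site below is given with 5 flanking bases on each side, with the 2 stems in capitals and the loop in lower case, from GENCODE M21 transcripts on GRCm38.
Hist1h1c (H1, and the stem-loop of 26 genes): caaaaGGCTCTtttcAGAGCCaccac
Hist1h3c (H3, and the stem-loop of 6 genes): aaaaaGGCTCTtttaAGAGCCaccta
Hist2h2ac (H2A, the stem-loop of 1 gene): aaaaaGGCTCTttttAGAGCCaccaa
Hist1h4h (H4, and the stem-loop of 7 genes): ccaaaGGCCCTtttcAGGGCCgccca
Hist2h4 (H4, and the stem-loop of 2 genes): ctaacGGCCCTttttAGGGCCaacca
Hist1h4b (H4, and the stem-loop of 2 genes): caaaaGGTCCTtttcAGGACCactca
H2afx (H2A.X, outside the family): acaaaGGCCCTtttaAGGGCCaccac

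In most gene models the transcript did not stop at the stem-loop. The model ended within 10 bases of it in 2 of the 44 genes, Hist1h2ap and Hist1h4m, ran 11 to 100 bases further in 20 and ran more than 100 bases further in 22. The longest extension was 4884 bases, in Hist1h1d, so a count assigned to such a gene can come from a processed message or from a longer transcript.

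The promoters also differed by type. RefSeq promoter windows (GRCm38.p6, 250 bases before to 50 after each start) were matched to 62 of the 67 genes, with 63 windows, and motifs were searched on both strands. The CCAAT box was in every window of an H1, H2A, H2B or H3 gene and in 25% of the H4 windows, against 37.4% of all 32851 windows. The TATA box sequence TATAAA was in 55.6% of the histone windows and in 13.6% of all windows. The octamer ATTTGCAT, the element bound by Oct1, was in 38.9% of H2A and 41.2% of H2B windows, in 0 of the H1, H3 and H4 windows and in 1.74% of all windows. Windows of head-to-head partners can overlap, so the same site can count for both types. The same octamer was read for Hist1h2ae and Hist1h2bg, for Hist1h2ah and Hist1h2bk, and for Hist1h2aa and Hist1h2ba. The H1 element AAACACA was in 5 of the 6 H1 windows (83.3%), in 11.1% of H2A, 11.8% of H2B and 7.18% of all windows. The sequence GGTCC, part of the H4 element read by Hinfp, was in 11 of the 12 H4 windows (91.7%) and in 45.5% of all windows. The 3 promoters below are examples, each as the 200 bases upstream of the start, 5′ to 3′ on the gene's strand. Matches to the TATA, CCAAT, octamer and H1 motifs on either strand are in capitals wherever they lie. The sequence GGTCC, present in Hist1h4n, is not marked.
Hist1h1b (H1, chr13:21780626-21780825, minus strand): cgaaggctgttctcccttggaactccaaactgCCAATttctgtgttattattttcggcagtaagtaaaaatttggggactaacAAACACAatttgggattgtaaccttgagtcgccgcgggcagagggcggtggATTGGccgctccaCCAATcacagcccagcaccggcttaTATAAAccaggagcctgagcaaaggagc
Hist1h2bg (H2B, chr13:23571200-23571399, plus strand): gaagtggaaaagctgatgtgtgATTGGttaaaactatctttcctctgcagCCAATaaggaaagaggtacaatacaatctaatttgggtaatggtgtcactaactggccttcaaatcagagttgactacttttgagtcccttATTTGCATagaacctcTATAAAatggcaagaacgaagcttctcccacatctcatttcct
Hist1h4n (H4, chr13:21832198-21832397, minus strand): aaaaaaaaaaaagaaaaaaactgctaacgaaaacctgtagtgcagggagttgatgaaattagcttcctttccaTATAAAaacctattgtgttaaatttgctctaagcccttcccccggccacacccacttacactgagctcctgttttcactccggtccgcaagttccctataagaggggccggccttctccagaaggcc

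Together the 67 genes were between 4577 and 14379 CPM, and 1 library of the control line stood apart. Their summed level was 11198, 5633 and 4577 CPM in shNS replicates 1, 2 and 3 with doxycycline and 14379, 11624 and 10055 CPM in shDis3l2 replicates 1, 2 and 3. The untreated libraries reached 7440.1 CPM (shNS) and 11385 CPM (shDis3l2). The first shNS replicate lay within the range of the shDis3l2 libraries, and the other shNS libraries, treated or not, lay below every shDis3l2 library. As a share of all counts the family took 1.17% in shNS replicate 1 and 0.538% and 0.425% in replicates 2 and 3, against 1.38%, 1.21% and 1.05% in shDis3l2 with doxycycline, 0.739% in untreated shNS and 1.18% in untreated shDis3l2. The 95% Wilson interval of the lowest share was 0.423 to 0.427% and that of the highest 1.377 to 1.384%, counting error only. The highest share was 3.25 times the lowest.

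**Figure D1:**
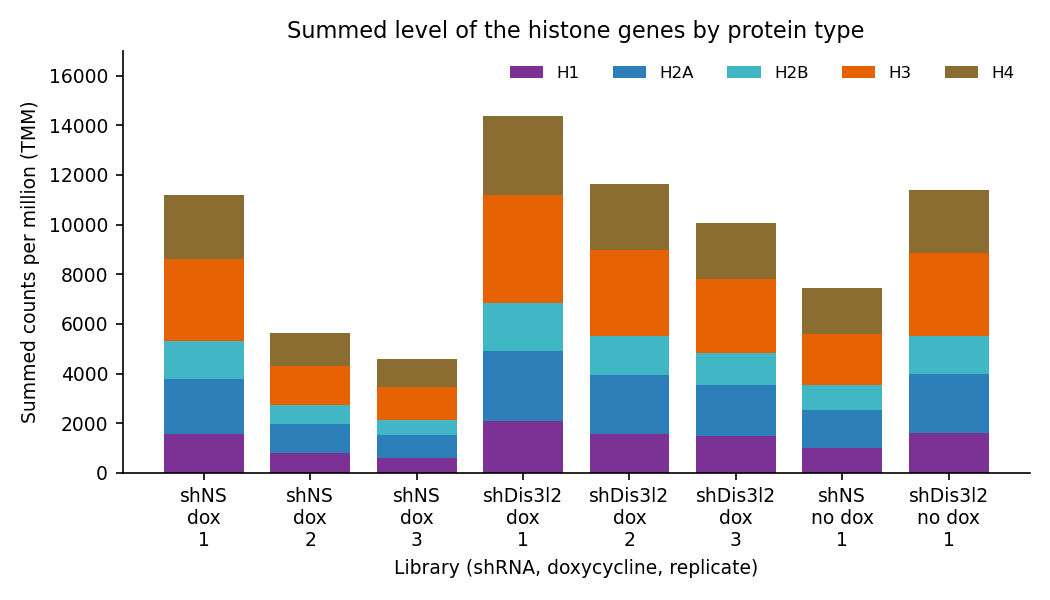
Summed level of the 67 histone genes in each library, in TMM-scaled CPM, stacked by the protein they encode; each bar is 1 library. The shNS replicates with doxycycline stand at 11198, 5633 and 4577 CPM and the shDis3l2 replicates at 14379, 11624 and 10055 CPM, and the 5 types keep nearly constant proportions.

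All types moved with the sum. With doxycycline, the ratio of group means, shDis3l2 over shNS, was 1.68 for all genes (12019 ± 2189 against 7136 ± 3557 CPM, mean ± SD, n = 3 each). It was 1.71 for H1, 1.69 for H2A, 1.69 for H2B, 1.74 for H3 and 1.59 for H4. By cluster it was 1.71 for Hist1, 1.62 for Hist2, 1.29 for Hist3 and 1.61 for Hist4h4. Without shNS replicate 1 the ratio for all genes was 2.35. In bulk RNA, a difference in the number of cells copying DNA and a difference in histone RNA per cell cannot be told apart.

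The make-up of the histone pool was nearly the same in all 8 libraries. H3 took 28.0 to 30.3% of the histone counts, H4 22.1 to 24.9%, H2A 19.7 to 21.04%, H1 12.9 to 14.6% and H2B 12.9 to 13.7%. Hist1 gave 70.9 to 73.3% and Hist2 24.0 to 26.2%, with the 10 Hist2 genes thus giving about as much as all H4 genes. Small differences went with the line. The H4 share was 23.2, 23.5 and 24.9% in the shNS replicates with doxycycline and 22.1, 22.6 and 22.2% in the shDis3l2 replicates, and untreated it was 24.7% in shNS and 22.4% in shDis3l2. The H3 share ran the other way, at 29.5, 28.3 and 29.0% in shNS and 30.3, 29.9 and 29.8% in shDis3l2 with doxycycline. Untreated it was 28.0% in shNS and 29.3% in shDis3l2, so untreated shDis3l2 lay below shNS replicate 1. These shares were singled out after their values were seen and were not tested. The order of the genes was also stable, with Spearman correlations of member levels between libraries of 0.972 to 0.992 over the tested genes, all of which share gene models and scaling.

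The 3 genes not tested were silent or nearly so. Hist1h1t, Hist1h2aa and Hist1h2ba, the testis-associated H1, H2A and H2B genes at the end of the second Hist1 block or within it, had 5, 0 and 1 counts over all 8 libraries. A count of 0 allows a level of up to 0.0659 to 0.0989 CPM, depending on the library (3 counts). The other 64 genes passed the filter on low counts in the comparison of the 6 doxycycline libraries, where the filter asked for about 10 counts in at least 3 libraries.

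Per kilobase of gene model, levels spanned from 1.31 CPM per kb (Hist1h4m) to 1259 CPM per kb (Hist2h2aa1) among tested genes. The 3 highest H1 genes were Hist1h1b, Hist1h1c and Hist1h1a, at 269, 228 and 221 CPM per kb. The 3 highest H2A genes were Hist2h2aa1, Hist1h2ap and Hist2h2ac, at 1259, 490.0 and 382 CPM per kb, and the 3 highest H2B genes were Hist1h2bg, Hist2h2bb and Hist1h2bk, at 395, 316 and 232 CPM per kb. For H3 they were Hist2h3b, Hist2h3c2 and Hist1h3b, at 810.0, 658 and 593 CPM per kb, and for H4 Hist1h4n, Hist1h4h and Hist1h4a, at 830.2, 516 and 358 CPM per kb. Model length bears on this order: Hist1h1d, whose 7425-base model runs past the stem-loop, stood at 43.4 CPM per kb although its level in CPM was close to that of Hist1h1c. Shared sequence bears on it too, because the counting software divides reads that match several genes. Hist2h2aa1, Hist1h2ap and Hist1h4m share 87.0, 91.0 and 85.8% of their 150-base windows with other transcripts. Hist1h4n, Hist2h3b, Hist1h2bk and Hist2h3c2 share 77.2, 73.7, 60.9 and 59.4%.

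With doxycycline, nearly every histone gene was higher in shDis3l2, but none passed the test. Of the 64 tested genes 63 had a positive log2 fold change, against 49.7% of all 13752 genes. The median was 0.76, with quartiles of 0.63 and 0.90, and the median over all genes was -0.002. By edgeR's quasi-likelihood test with Benjamini-Hochberg adjustment, 0 of the 64 passed an adjusted p of 0.05 in either direction, against 6.14% of all genes (2.13% higher and 4.01% lower). At an unadjusted p under 0.05, 21 were higher, against 8.79% of all genes. With DESeq2, 9 genes passed as higher (Hist1h2ab, Hist1h2ad, Hist1h2af, Hist1h2bf, Hist1h3b, Hist1h3c, Hist2h2ab, Hist2h2ac and Hist2h4), against 4.68% of all genes, and with limma-voom 0, against 2.31%. In 14 genes every shDis3l2 library exceeded every shNS library, against 13.2% of all genes, and in 0 genes the reverse held.

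The control replicate 1 decided these calls. In 64 of 64 genes it was above shNS replicates 2 and 3, and it was above shDis3l2 replicates 1, 2 and 3 in 7, 21 and 49 genes. All 3 shDis3l2 libraries exceeded shNS replicates 2 and 3 in 63 of 64 genes, against 21.4% of all genes. Without shNS replicate 1, 52 of 64 genes passed as higher and 0 as lower, against 3.59% and 4.65% of all genes, and the median log2 fold change was 1.26. The labels give no reason to leave that library out, and when any other doxycycline library was left out 0 genes passed, with medians of 0.53 to 0.92.

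**Figure D2:**
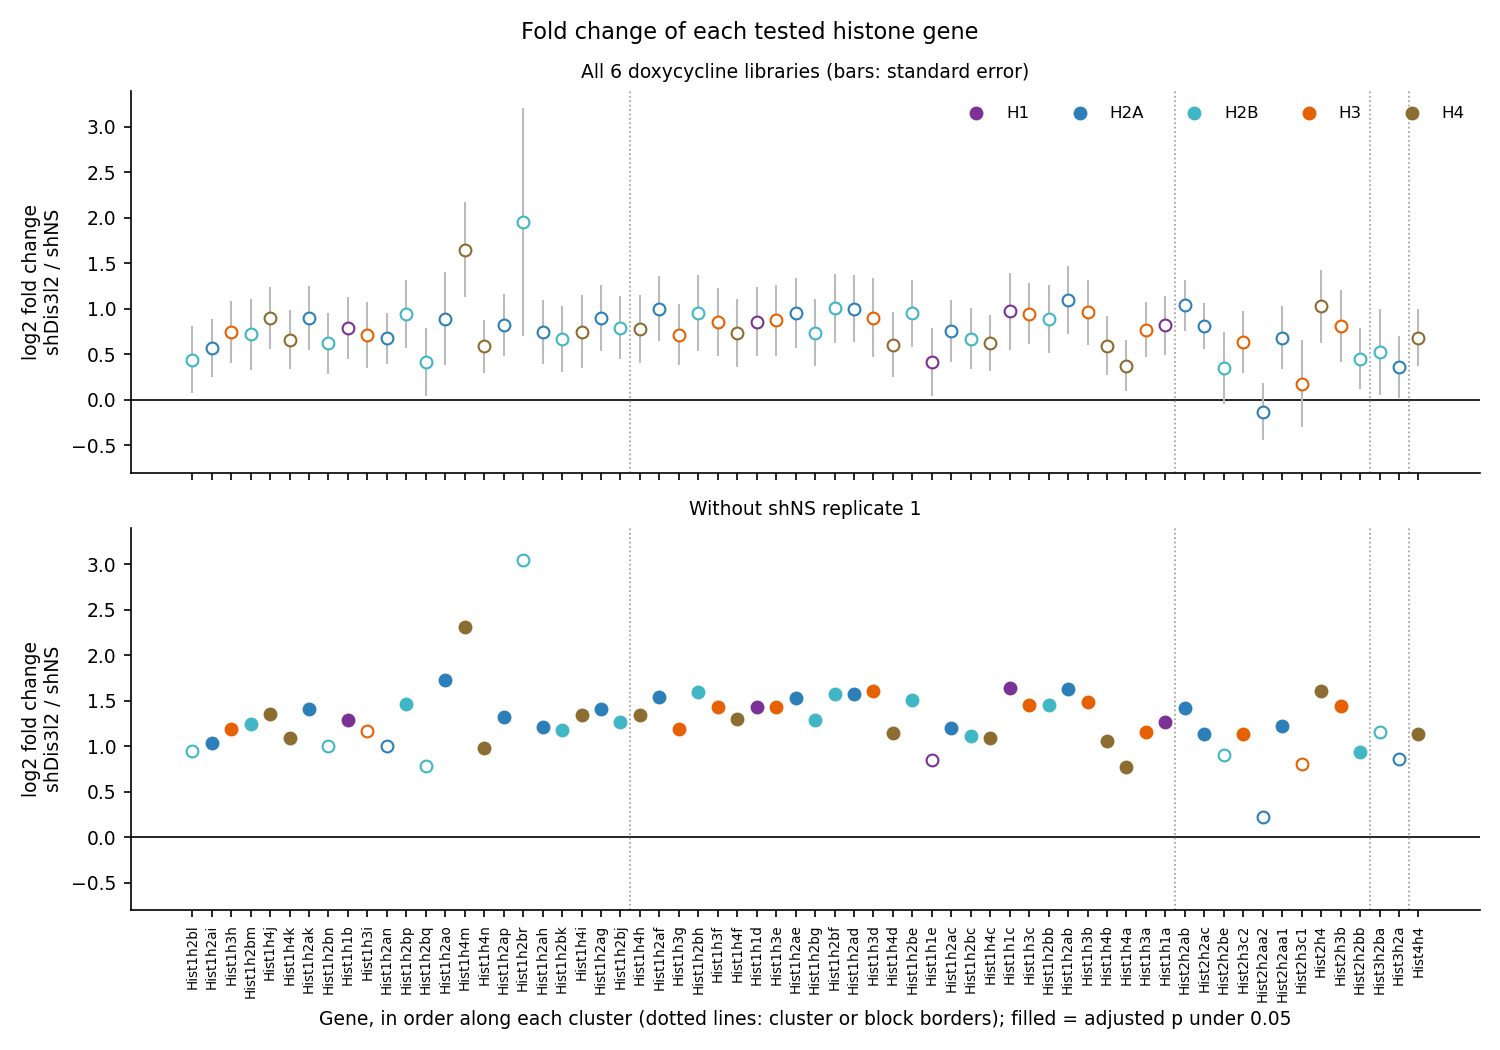
Log2 fold change (shDis3l2 over shNS, with doxycycline) of the 64 tested histone genes in order along the Hist1, Hist2, Hist3 and Hist4 loci, coloured by type. The upper panel uses all 6 libraries with standard errors as bars and holds no filled point (0 genes with adjusted p under 0.05); the lower panel leaves out shNS replicate 1 and holds 52 filled points.

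The H1 genes encode proteins that bind the linker DNA between nucleosomes, and the log2 fold changes of the 5 tested ones ran from 0.42 to 0.97, with differences between them not tested. Hist1h1c, the H1.2 gene, was at 419.8, 165 and 149 CPM in shNS replicates 1, 2 and 3 and at 601, 423 and 415 CPM in the shDis3l2 replicates, and untreated at 201 CPM in shNS and 475 CPM in shDis3l2. Its log2 fold change with doxycycline was 0.97 (SE 0.42, adjusted p = 0.259 by edgeR), and its untreated log2 ratio was 1.24. Hist1h1e, the H1.4 gene and named here after its values were seen, was at 369, 245 and 129 CPM in shNS and at 408, 309 and 275 CPM in shDis3l2, with a log2 fold change of 0.42 (SE 0.37, adjusted p = 0.606 by edgeR). The groups overlapped in both genes through shNS replicate 1. The ratio of Hist1h1c to Hist1h1e counts was 1.14, 0.672 and 1.16 in shNS with doxycycline and 0.712 in untreated shNS, against 1.47, 1.37 and 1.51 in shDis3l2 with doxycycline and 1.42 without. Hist1h1c therefore led in every shDis3l2 library and Hist1h1e led in shNS replicate 2 and untreated shNS. Hist1h1e shares 19.5% of its 150-base windows with Hist1h2be, and Hist1h1c shares 0%. The Hist1h1e count can thus rest in part on how shared reads were divided. Hist1h1b (H1.5) and Hist1h1a (H1.1) had log2 fold changes of 0.79 (SE 0.34) and 0.82 (SE 0.33), with adjusted p-values of 0.2495 and 0.217 by edgeR, and Hist1h1d (H1.3) had one of 0.86 (SE 0.38, adjusted p = 0.259).

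**Figure D3:**
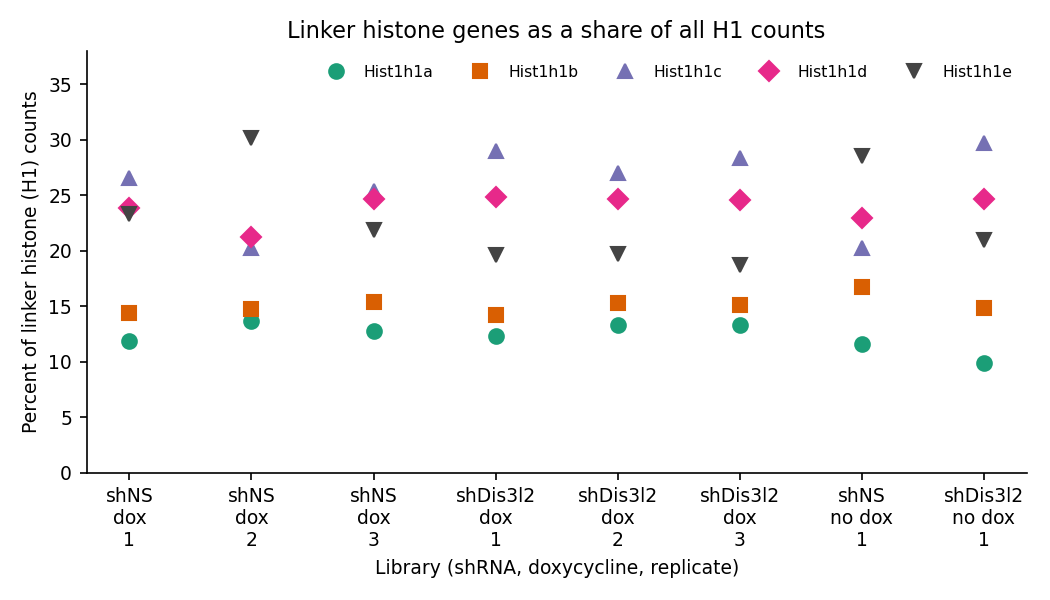
Share of all H1 counts, in percent, held by each of the 5 expressed linker histone genes in each of the 8 libraries; each point is 1 gene in 1 library. Hist1h1e takes 30.2% and 28.5% in shNS replicate 2 and untreated shNS, where Hist1h1c takes 20.3%, and Hist1h1c takes 25.4 to 29.7% in the other libraries.

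The 2 smallest p-values of the whole family belonged to H2A genes of the Hist2 cluster. Hist2h2ab was at 12.4, 7.76 and 5.84 CPM in shNS replicates 1, 2 and 3 and at 18.3, 19.0 and 16.1 CPM in shDis3l2, and its untreated levels were 8.57 and 18.6 CPM. Hist2h2ac was at 196, 127 and 105 CPM in shNS and at 298, 241 and 215 CPM in shDis3l2, and untreated at 168 and 238 CPM. In both genes all shDis3l2 libraries, treated or not, lay above all shNS libraries. Their log2 fold changes were 1.04 (SE 0.28) and 0.82 (SE 0.25), and the adjusted p-values of 0.0768 and 0.115 by edgeR did not pass; Hist2h2ab alone passed without the low-count filter, at 0.0480, against 1.5% of all genes then called higher. Neither gene shares a 150-base window with another transcript. Hist1h2ab, in the Hist1 cluster, was at 138, 71.5 and 51.5 CPM in shNS and at 225, 183 and 151 CPM in shDis3l2, a log2 fold change of 1.10 (SE 0.37, adjusted p = 0.151 by edgeR). The 2 most abundant H2A genes, Hist2h2aa1 and Hist1h2ap, had log2 fold changes of 0.68 and 0.82.

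Fewer H2B than H2A genes were higher at an unadjusted p under 0.05 by edgeR, 4 of 17 against 10 of 17. The share of all genes was 8.79%, and the difference between the 2 types was not tested. Hist1h2bg, the H2B gene with the highest level per kilobase, was at 294, 137 and 118 CPM in shNS and at 374, 294 and 249.4 CPM in shDis3l2, a log2 fold change of 0.74 (SE 0.37, adjusted p = 0.322 by edgeR). Hist2h2bb was at 155, 83.4 and 63.7 CPM in shNS and at 152, 149.8 and 113 CPM in shDis3l2, with a log2 fold change of 0.45 (SE 0.33), and Hist1h2bk had one of 0.67 (SE 0.36). In Hist1h2bg and Hist1h2bk shNS replicate 1 lay among the shDis3l2 libraries, and in Hist2h2bb it lay above all of them. Hist2h2be was low, at 3.63 to 11.9 CPM over the 8 libraries, with a log2 fold change of 0.35 (SE 0.40).

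The H3 genes were the most abundant type. Hist2h3c2 was at 832, 414 and 358 CPM in shNS replicates 1, 2 and 3 and at 1002.4, 802 and 690.1 CPM in shDis3l2, and untreated at 475 and 795 CPM. Hist2h3b was at 487, 206 and 174 CPM in shNS and at 576, 501 and 447 CPM in shDis3l2. In both, shNS replicate 1 overlapped the shDis3l2 libraries, and the log2 fold changes were 0.64 (SE 0.34) and 0.81 (SE 0.39). In Hist1h3b and Hist1h3c the groups did not overlap. Hist1h3b was at 396, 196 and 158 CPM in shNS and at 581, 478 and 404 CPM in shDis3l2, and Hist1h3c was at 202, 103 and 84.3 CPM in shNS and at 293, 239.5 and 219.6 CPM in shDis3l2. Their log2 fold changes of 0.96 (SE 0.36) and 0.95 (SE 0.34) had adjusted p-values of 0.184 and 0.165 by edgeR.

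The H4 genes encode a single protein sequence from many copies and had the lowest type median, 0.68, against 0.82 for H1, 0.82 for H2A, 0.72 for H2B and 0.79 for H3. Hist1h4n was at 413, 240.1 and 199 CPM in shNS and at 512, 419.5 and 351 CPM in shDis3l2, a log2 fold change of 0.59 (SE 0.29). Hist1h4h and Hist1h4a had log2 fold changes of 0.78 (SE 0.37) and 0.37 (SE 0.28). Hist1h4a was the least changed H4 gene, with 243 CPM in shNS replicate 1 above 2 of the 3 shDis3l2 libraries (250.5, 217 and 181 CPM). Hist2h4, the H4 gene of the Hist2 cluster, was at 189, 71.6 and 85.9 CPM in shNS and at 309.8, 208 and 189.3 CPM in shDis3l2, a log2 fold change of 1.03 (SE 0.40, adjusted p = 0.207 by edgeR). Without shNS replicate 1 all 13 H4 genes passed as higher, against 14 of 17 H2A, 11 of 17 H2B, 10 of 12 H3 and 4 of 5 H1 genes. In that fit 3.59% of all genes passed as higher. The library left out was above shNS replicates 2 and 3 in 64 of 64 histone genes. The differences between types were not tested.

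The Hist3 and Hist4 loci hold the remaining genes. Hist3h2a was at 44.5, 23.7 and 17.6 CPM in shNS and at 42.1, 37.5 and 30.8 CPM in shDis3l2, and untreated at 37.0 and 36.5 CPM. Hist3h2ba stayed at 0.527 to 1.61 CPM in every library. Their log2 fold changes were 0.36 (SE 0.34) and 0.52 (SE 0.47). Hist4h4 was at 263, 146 and 115 CPM in shNS and at 332, 254 and 257 CPM in shDis3l2, a log2 fold change of 0.68 (SE 0.31, adjusted p = 0.275 by edgeR). Untreated, it was at 239 CPM in shNS and 227 CPM in shDis3l2, where the family as a whole was higher in shDis3l2.

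Across the 12 head-to-head pairs the median absolute difference in log2 fold change between partners was 0.17, against 0.22 over the other 2004 pairs of tested histone genes, a difference that was not tested. The pair with the closest fold changes, Hist1h2bf and Hist1h2ad, had log2 fold changes of 1.01 and 1.00 and was chosen after its values were seen. It has 184 bases between its genes and is not the pair with the shortest gap. The largest difference, 1.13, was in the pair of Hist1h2ap with Hist1h2br, of which the latter shares most of its sequence with another gene. Levels of partners could still differ: Hist2h2ac had a mean of 198 CPM over the 8 libraries and its partner Hist2h2be, 238 bases away, 8.18 CPM. Genes surrounding the 2 large clusters had medians below 0. Within 1 Mb of the Hist1 cluster, the 22 tested genes that are not members had a median log2 fold change of -0.20. Of these, 0 passed as higher and 1 as lower. Around Hist2 the 72 such genes had a median of -0.25, with 0 higher and 7 lower. Around Hist3 the 35 such genes had a median of 0.04, with 2 higher and 0 lower. The 11 around Hist4h4 had a median of 0.15, with 1 higher and 0 lower. Over all genes, 2.13% passed as higher and 4.01% as lower.

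Reads of many histone genes cannot be placed on 1 gene. Of the 67 genes, 21 share more than 50% of their 150-base windows with another transcript and 14 share none. The 12 tested genes with no shared window had log2 fold changes of 0.35 to 1.04 with a median of 0.82, and the 21 tested genes with more than 50% shared had a range of -0.13 to 1.96 with a median of 0.71. The extremes of the family were among the latter. Hist1h2br, which shares 84.2% of its windows, mostly with Hist1h2bq, was at 19.7, 8.93 and 0.345 CPM in shNS and at 13.0, 74.7 and 24.7 CPM in shDis3l2, a log2 fold change of 1.96 with an SE of 1.26. The sum of Hist1h2bq and Hist1h2br was at 130.1, 75.2 and 55.4 CPM in shNS and at 169, 145 and 108 CPM in shDis3l2, and these 6 libraries ranked as they did for the whole family.

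The only negative fold change belonged to a gene of the same kind. Hist2h2aa2, all of whose windows are shared with Hist2h2aa1 or with the nearby transcript Gm20634, was at 69.0, 45.3 and 33.0 CPM in shNS and at 54.4, 48.7 and 31.6 CPM in shDis3l2, a log2 fold change of -0.13 (SE 0.31). The sum of Hist2h2aa1 and Hist2h2aa2 was at 952, 463 and 395 CPM in shNS and at 1087, 909 and 809 CPM in shDis3l2. Hist2h3c1, also fully shared, was at 1.67 to 7.12 CPM in the doxycycline libraries and had a log2 fold change of 0.18 (SE 0.48). Hist1h4m, which shares 85.8% of its windows, mostly with Hist1h4n, never exceeded 1.17 CPM, and its log2 fold change of 1.65 (SE 0.52, adjusted p = 0.120 by edgeR) rests on few counts. The division of counts within these pairs is an estimate made by the authors' counting software.

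**Figure D4:**
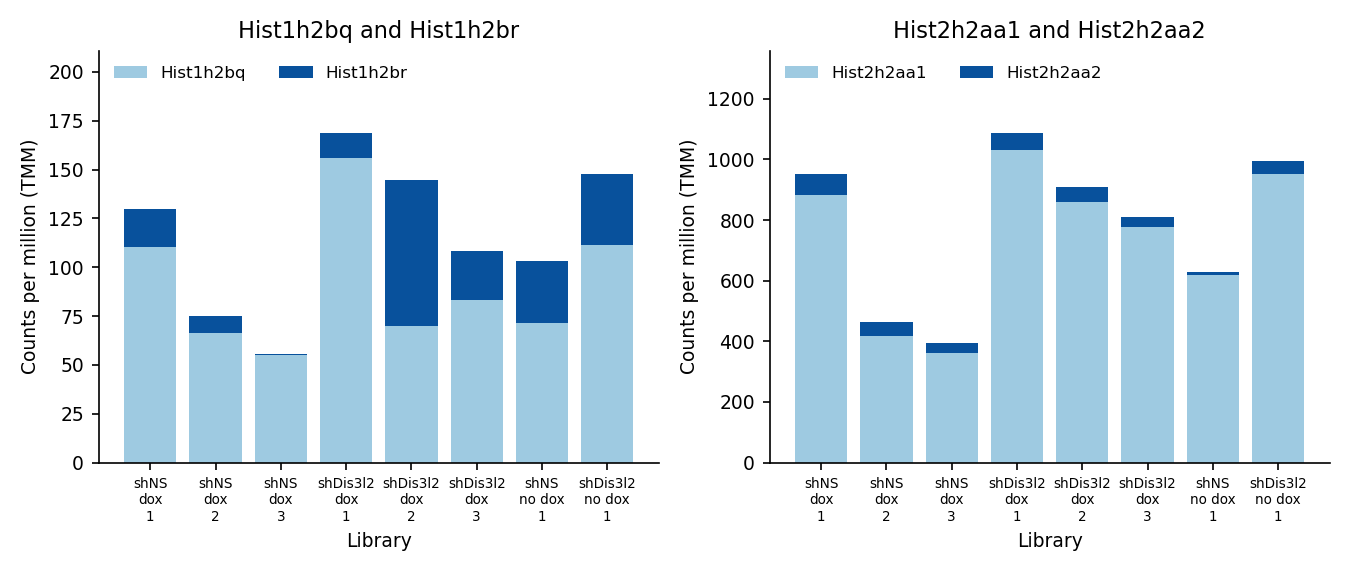
Levels of 2 pairs of near-identical histone genes in each of the 8 libraries, in TMM-scaled CPM, stacked so that the top of each bar is the pair's sum. The share given to Hist1h2br varies from 0.345 to 74.7 CPM between libraries, while the sums of the pairs run from 55.4 to 169 CPM and from 395 to 1087 CPM, both lowest in shNS replicate 3 and highest in shDis3l2 replicate 1.

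The difference between the lines was also present without doxycycline, where Dis3l2 was at like levels. With 1 library per line there is no test. Of the 64 genes 61 were higher in untreated shDis3l2, against 49.6% of all genes, with a median log2 ratio of 0.61. At least 1.5-fold higher were 34 of 64, against 16.9% of all 15250 genes, and 0 were at least 1.5-fold lower, against 18.3%. The 3 genes that were not higher were Hist3h2a (-0.02), Hist4h4 (-0.08) and Hist1h4m (-0.27). The largest ratios, 2.42 in Hist2h3c1 and 2.03 in Hist2h2aa2, were in genes whose reads are fully shared, and 1.32 in Hist2h2be followed.

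No effect of doxycycline on the family was called, but these fits called no gene at all. With all 8 libraries in 1 fit, edgeR called 0 of the 64 genes in shNS, 0 in shDis3l2 and 0 for the difference between these effects, against 0.0% of all genes in each comparison. Dis3l2 was thus not called in shDis3l2 either, although it was at 28.6 CPM untreated and at 12.0, 13.5 and 14.9 CPM with doxycycline. These fits therefore cannot show that the family was unchanged. At an unadjusted p under 0.05 there were 2, 0 and 1 of the 64, against 4.24%, 3.3% and 3.78% of all genes. The median log2 fold changes were -0.06 in shNS and 0.09 in shDis3l2, and the median difference was 0.16. Positive were 20, 47 and 47 of the 64, against 51.4%, 50.6% and 49.1% of all genes. The 2 genes in shNS were Hist2h2aa2 (2.16, SE 0.51) and Hist2h3c1 (2.02, SE 0.79), both fully shared. Each effect rests on 1 untreated library, and the shNS median was -0.55 without shNS replicate 1 and 0.15 without shNS replicate 3.

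Other gene lists of the histone cycle, written with earlier results of these data known, had smaller medians. Of 9 tested replacement histones, which are made outside S phase from polyadenylated messages, all had positive log2 fold changes with doxycycline, with a median of 0.41, and 1 passed. Without shNS replicate 1, 4 passed as higher. The gene that passed with all 6 libraries was H2afx, whose message, unlike the others, is known in a stem-loop form as well as a polyadenylated one. H2afx was at 242, 140.0 and 131 CPM in shNS and at 479, 416 and 363 CPM in shDis3l2, and untreated at 195 and 443 CPM. The groups did not overlap, and the log2 fold change was 1.29 (SE 0.26, adjusted p = 0.0331 by edgeR). The adjusted p was 0.00677 without shNS replicate 1 and 0.0606 to 0.113 when any of the other 5 libraries was left out. Its chromosomal surroundings were also higher: on chromosome 9, the 40 other tested genes within 1 Mb had a median log2 fold change of 0.59 with doxycycline and 0.65 without. With doxycycline 8 of them passed as higher, against 2.13% of all genes. Their part in the H2afx result was not tested.

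Of 27 tested genes for histone transcription and 3′ processing 0 passed, with a median log2 fold change of 0.08 against 0.76 for the histone genes. Without shNS replicate 1, 1 passed, the H4 transcription factor Hinfp, at an adjusted p of 0.0218 by edgeR. Slbp, the stem-loop-binding protein, was at 49.3, 50.1 and 68.4 CPM in shNS and at 50.8, 58.8 and 56.3 CPM in shDis3l2, with overlapping groups and a log2 fold change of -0.01 (SE 0.16). Npat, the coactivator of histone transcription, was at 65.9, 76.4 and 74.8 CPM in shNS and at 92.4, 104.9 and 101.9 CPM in shDis3l2, a log2 fold change of 0.47 (SE 0.12, adjusted p = 0.0762 by edgeR), and Hinfp had one of 0.59 (SE 0.19, adjusted p = 0.124). In Npat and Hinfp the groups did not overlap. Both are on chromosome 9; Hinfp lies in the stretch around H2afx, and the 8 other tested genes within 1 Mb of Npat had a median of 0.32.

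Of 32 tested genes for histone mRNA decay 1 passed, the targeted Dis3l2 itself, whose call is lost in the fits named above, and the median was 0.12. Eri1, the 3′ exonuclease that trims the stem-loop end, had a log2 fold change of 0.05 (SE 0.12). Of 25 histone chaperones and related genes 1 passed as higher, Daxx, which deposits H3.3, at 29.1, 26.2 and 26.4 CPM in shNS and at 62.0, 51.9 and 47.5 CPM in shDis3l2 (log2 fold change 0.98, SE 0.14, adjusted p = 0.0108 by edgeR, and 0.0522 without shDis3l2 replicate 2).

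DNA replication genes had other values than the histone genes. Of 50 tested, 0 passed with doxycycline and the median log2 fold change was 0.10; without shNS replicate 1, 1 passed as lower, the origin-recognition subunit gene Orc1 (chosen after its values were seen). Without doxycycline the median log2 ratio was -0.44, with 2 of 50 higher in shDis3l2, where 61 of 64 histone genes were higher. Centred on its mean over the 8 libraries, the average log2 level of the replication list was -0.06, -0.13 and 0.09 in shNS replicates 1, 2 and 3, 0.16, 0.05 and -0.03 in shDis3l2, and 0.19 and -0.26 in untreated shNS and shDis3l2. The same measure for the 64 histone genes was 0.33, -0.65 and -0.96 in shNS, 0.65, 0.42 and 0.16 in shDis3l2, and -0.29 and 0.34 untreated. Of 21 tested G1 to S regulators 1 passed as higher, the repressor E2f7 (log2 fold change 0.80, SE 0.17, adjusted p = 0.0367 by edgeR). Its adjusted p was 0.0353 without shNS replicate 1 and 0.0600 to 0.169 when any other library was left out.

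The mitosis list ran closer to the histone genes. All 30 genes had positive log2 fold changes with doxycycline and all 30 were higher untreated, with medians of 0.53 and 0.47. One passed, the cyclin gene Ccnb2 on chromosome 9 (log2 fold change 1.15, SE 0.26, adjusted p = 0.0472 by edgeR), and 13 passed as higher without shNS replicate 1. For Ccnb2 the adjusted p was 0.0119 without that library and 0.0507 to 0.165 when any other was left out. The 12 other tested genes within 1 Mb of Ccnb2 had a median log2 fold change of 0.51 with doxycycline and 0.48 without. With doxycycline 2 of them passed as higher, against 2.13% of all genes. Their part in the Ccnb2 result was not tested. Centred levels of the list were 0.12, -0.44 and -0.74 in shNS replicates 1, 2 and 3, 0.12, 0.30 and 0.23 in shDis3l2, and -0.07 and 0.49 untreated. Replicate 1 of shNS was thus the highest shNS library for mitotic genes as well, and the part of cell cycle state in the histone difference was not tested.

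**Figure D5:**
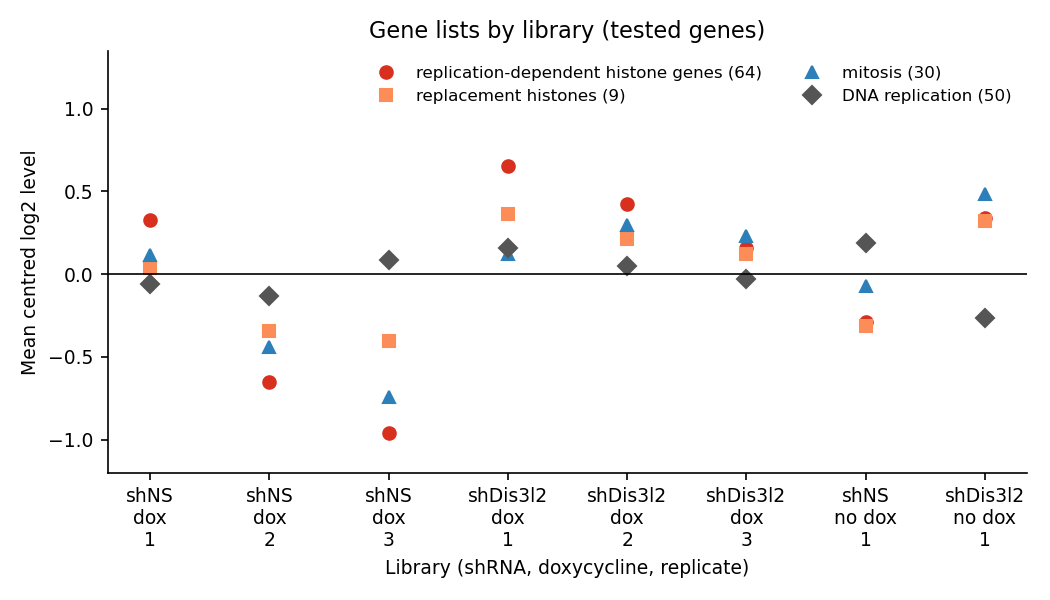
Mean log2 level of the tested genes of 4 lists in each library, each gene centred on its mean over the 8 libraries; each point is 1 list in 1 library. The histone genes and the mitosis list are low in shNS replicates 2 and 3 (-0.65 and -0.96 against -0.44 and -0.74), while the DNA replication list stays between -0.26 and 0.19.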

How the data were processed

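The authors deposited 1 table of gene-level expected counts, not normalized. RSEM, STAR 2.7, cutadapt and the builds mm10 and GRCm38 are listed in the submitters' processing notes, and a stranded kit with 150 nt paired reads is described in the labels' protocols. Which annotation release and strand setting were used is not given in the sources used here. All 55450 identifiers matched GENCODE M21. Counts were rounded (4.68 to 5.24% of values changed per library). Tested genes met edgeR's filterByExpr (minimum count 10). Tests were edgeR 4.0.16 quasi-likelihood fits (R 4.3.3, TMM, robust, two-sided) over all genes, Benjamini-Hochberg adjusted, called under 0.05. The main comparison used 6 libraries, and doxycycline effects used all 8 as 4 groups, where a lone library is assumed to vary like the others. DESeq2 1.42.0 and limma-voom (limma 3.58.1) were alternatives. The method was tested on simulated data. No replicates agreed within counting noise (chi-square per gene at least 17.8). Named genes are the 3 highest per kilobase of each type, the 5 smallest p-values, the 3 largest and smallest fold changes, expressed Hist2, Hist3 and Hist4 genes, testis-associated genes and up to 4 per context list; others are said to be chosen later, and Slbp, Eri1, Hist1h1d, Hist1h2ad, Hist1h2af, Hist1h2bf and Hist1h2bq were too. Members and lists were chosen with earlier results of these data known. Untreated log2 ratios used a prior count of 2.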

Additional observations from a re-analysis of the deposited data

How the results depend on the processing

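Positive medians and sums held under all alternatives run for the main comparison: the members' median log2 fold change was 0.53 to 1.26 (0.76 in the reported fit) and the ratio of summed levels 1.43 to 2.35. Calls did not hold. The number of histone genes passing as higher was 1 without a low-count filter, 9 with DESeq2, and 0 to 52 over leaving out each library. Those with an unadjusted p under 0.05 numbered 46 with DESeq2 (21.7% of all genes), 39 with limma-voom (21.2%) and 2 to 60 over leaving out each library (14.1 to 24.8% of all genes; 2 without shDis3l2 replicate 1, where the share was 20.3%, and 60 without shNS replicate 1, 24.8%), against 21 (20.8%). All genes called numbered 1749 with DESeq2 and 203 to 1157 over leaving out each library, against 845. The doxycycline effect in shNS called 2 genes without a low-count filter and 0 to 544 over leaving out each library, with 0 to 1 histone genes (Hist2h3c1, without shNS replicate 2). The difference of doxycycline effects called 2 genes without a filter and 0 to 121 over leaving out each library. The labels do not state whether shared replicate numbers pair the samples. Over all tested genes, deviations of same-numbered libraries correlated at -0.13, 0.03 and -0.001, and those of other numbers at -0.12 to 0.10. With 3 libraries per group these correlations cannot decide the question. The summed histone level fell from replicate 1 to 2 to 3 in both lines with doxycycline. With the replicate block, 0 histone genes and 421 genes passed, 53 histone genes had an unadjusted p under 0.05 (18.1% of all genes), and the median was 0.85; the adjusted p of Dis3l2 was 0.0822. Leaving the histone genes out of the scaling, chosen after seeing the data, gave 0 histone genes called and a median of 0.78. Depth limits few members: 3 had at most 5 counts.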

Other observations

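Among the histone rows annotated as pseudogenes, Hist1h2al had 1590, 961 and 796 counts in shNS replicates 1, 2 and 3 with doxycycline, 2364, 1639 and 1169 in the shDis3l2 replicates, and 1098 and 1714 in untreated shNS and shDis3l2. It is a processed pseudogene at chr13:51202727-51203065 (GRCm38), outside the Hist1 cluster. Hist3h2bb-ps had 5 to 31 counts and Hist1h2aj 0 to 8.

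The transcript Gm20634, which overlaps Hist2h2aa1 and Hist2h3c1 at chr3:96245554-96248509, had 677, 159 and 248 counts in shNS with doxycycline, 356, 221 and 269 in shDis3l2, and 235 and 363 in the untreated libraries.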
